A study of Mus musculus with 5 samples.

Results

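The genes described here are the 35 that encode chaperones, foldases and components of ER-associated degradation (ERAD), the machinery with which the endoplasmic reticulum folds secretory proteins and disposes of those that fail. They were picked by gene symbol from a list of 12 chaperones, 12 foldases and 11 ERAD components, out of 18193 genes with a probe set of their own on the array, of which 13578 were bright enough to be tested. All 35 were measured and tested, each through the brightest of its probe sets, and all 35 had an intensity of at least 50 in all 5 arrays. Long-lived plasma cells (PCs) came from the bone marrow of C57BL/6J mice immunized with NP-CGG in incomplete Freund's adjuvant, boosted, and left for over a month after the last boost. Cultured PCs (3 arrays) had spent 3 days with ST2 cells, a stromal line from BALB/c bone marrow, and APRIL, a cytokine that PCs bind through BCMA, at physiological oxygen, and were sorted by flow cytometry before RNA was taken. Ex vivo PCs (2 arrays) were measured straight after magnetic isolation, by depletion of B220+ and CD49b+ cells and enrichment of CD138high cells. Experiment 1 held 1 cultured and 1 ex vivo sample, and experiment 2 held 2 cultured samples and 1 ex vivo sample. Nothing in the sources says that the 2 cultured samples of experiment 2 were separate cultures, so p-values may in part measure technical spread. The 8 PC markers examined, among them Jchain, Sdc1 and Irf4, lay between 10.62 and 13.97 on the log2 scale in all arrays. None of them passed the test between cultured and ex vivo PCs. Of all genes tested, 0.0589% passed it, and 1.74% with the experiment in the model. All 8 had a fitted change below zero, with a median of -0.13. In 6 of them (75.0%) every cultured sample lay below the ex vivo sample of its experiment, as in 29.7% of all genes. In 3 (37.5%) all cultured arrays lay below both ex vivo arrays, as in 13.0% of all genes.

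A PC secretes antibody at a rate that few other cells match, and heavy and light chains must be folded, disulfide-bonded, glycosylated and assembled in its ER first. BiP (Hspa5) with its J-domain co-chaperones and GRP94 (Hsp90b1) hold unfolded chains, calnexin and calreticulin retain glycoproteins, and the protein disulfide isomerases and prolyl isomerases catalyse the slow steps. Chains that do not fold are recognised by EDEM proteins and OS9, passed through the membrane complex of SEL1L, HRD1 (Syvn1) and the derlins, ubiquitinated and degraded. Many of these genes are targets of the unfolded protein response, in which ATF6 and the spliced form of XBP1 bind short elements in promoters.

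The promoter elements known to carry that control are shown here because some of these genes carry them, while 17 of the 31 with a promoter window hold none of the 3 searched. RefSeq start sites (GRCm38.p6) were found for 31 of the 35 genes, with a window of 250 bases before and 50 bases after the start. Hyou1, Manf, Mzb1 and Derl1 had no window in the table used. The 31 genes had 38 windows, and a gene counted as holding an element if any of its windows did. The shares of genes below are therefore in another unit than the shares of all windows beside them. The ER stress response element (ERSE, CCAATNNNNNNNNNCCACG), searched on both strands, was present in 9 of the 31 genes (29.0%) and in 39 of all 32851 windows (0.119%). The sites are written 5′ to 3′ on the strand of the element, with the fixed letters in capitals.
Hspa5: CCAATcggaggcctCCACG
Hsp90b1, distal site: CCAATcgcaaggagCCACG
Hsp90b1, proximal site: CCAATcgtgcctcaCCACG
Calr: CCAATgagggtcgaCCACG
Canx: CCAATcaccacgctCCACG
Dnajc3: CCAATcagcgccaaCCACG
Pdia6: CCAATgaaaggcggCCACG
Creld2: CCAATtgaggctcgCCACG
Syvn1: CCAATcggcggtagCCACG
Derl3: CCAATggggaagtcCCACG
The 9 free bases between the capitals differ from gene to gene. The start of the element lay from 212 bases upstream of the start site, at the distal site of Hsp90b1, to 44 bases upstream, in Syvn1. In Calr, Creld2, Derl3 and the proximal site of Hsp90b1 the element ran against the direction of the gene.

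A shorter relative, ERSE-II (ATTGGNCCACG), was present in 2 of the 31 genes (6.45%) and in 12 of all windows (0.0365%). The unfolded protein response element (UPRE, TGACGTGG) was present in 3 of the 31 genes (9.68%), Txndc5, Txndc11 and Ube2j1, and in 222 of all windows (0.676%). The ERSE-II sites are given with their fixed letters in capitals.
Dnajb11: ATTGGcCCACG
Herpud1: ATTGGgCCACG
A match is a run of letters in the window and was not shown to be bound in these cells. These 3 motifs do not overlap each other in the members. Of the members whose values are followed most closely below, Fkbp11, P4hb, Sdf2l1 and Ppib had none of the 3 motifs in these windows, which says only that these letters are not there.

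**Figure D1:**
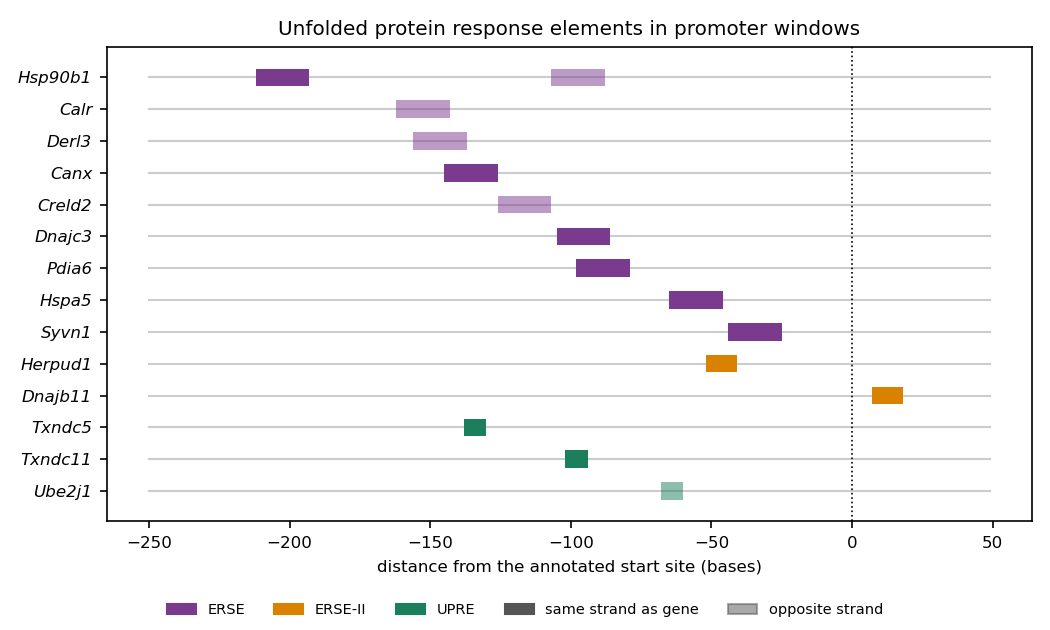
Position of the 3 promoter elements in the 14 genes that hold one, in bases from the annotated start site (dotted line). Grey lines are the windows searched, full colour marks elements on the strand of the gene and pale colour elements on the opposite strand. Elements lie upstream of the start site in all of these genes except Dnajb11, where the ERSE-II begins 7 bases after it.

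Whole windows follow for Hspa5, the classical carrier of the element, for Fkbp11 and Derl3, the members with the lowest fitted change in culture, and for P4hb, the member with the highest. The capitals mark the fixed letters of the ERSE, which reads in reverse complement in Derl3. The Hspa5 window is chr2:34771840-34772139 on the plus strand, and that of Derl3, whose protein forms part of the retrotranslocation complex, is chr10:75893148-75893447 on the plus strand. Fkbp11, a prolyl isomerase, has a pair of annotated start sites, with windows at chr15:98728149-98728448 and chr15:98727578-98727877 on the minus strand. P4hb, the protein disulfide isomerase itself, lies at chr11:120573204-120573503 on the minus strand.
Hspa5: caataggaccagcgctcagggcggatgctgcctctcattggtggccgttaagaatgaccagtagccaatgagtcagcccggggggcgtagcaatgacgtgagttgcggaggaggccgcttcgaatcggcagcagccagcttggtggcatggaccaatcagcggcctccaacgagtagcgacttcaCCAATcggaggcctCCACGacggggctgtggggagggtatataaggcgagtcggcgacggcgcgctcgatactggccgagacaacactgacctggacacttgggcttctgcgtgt
Derl3: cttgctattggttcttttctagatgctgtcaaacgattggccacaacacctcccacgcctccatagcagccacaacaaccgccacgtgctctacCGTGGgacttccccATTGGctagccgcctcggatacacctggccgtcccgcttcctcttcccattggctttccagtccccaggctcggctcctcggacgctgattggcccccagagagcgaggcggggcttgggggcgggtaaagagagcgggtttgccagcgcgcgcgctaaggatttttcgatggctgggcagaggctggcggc
Fkbp11, upstream start: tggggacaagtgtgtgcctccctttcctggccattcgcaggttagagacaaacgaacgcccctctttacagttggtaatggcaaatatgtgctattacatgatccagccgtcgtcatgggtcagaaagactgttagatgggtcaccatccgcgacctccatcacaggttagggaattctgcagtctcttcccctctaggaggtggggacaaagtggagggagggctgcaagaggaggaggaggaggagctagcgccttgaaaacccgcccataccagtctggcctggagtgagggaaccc
Fkbp11, downstream start: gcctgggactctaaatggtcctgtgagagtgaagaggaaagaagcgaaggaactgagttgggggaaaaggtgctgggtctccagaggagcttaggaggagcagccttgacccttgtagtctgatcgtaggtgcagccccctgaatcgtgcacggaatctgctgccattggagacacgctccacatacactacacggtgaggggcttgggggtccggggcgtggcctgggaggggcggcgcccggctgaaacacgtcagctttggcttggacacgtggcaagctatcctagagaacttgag
P4hb: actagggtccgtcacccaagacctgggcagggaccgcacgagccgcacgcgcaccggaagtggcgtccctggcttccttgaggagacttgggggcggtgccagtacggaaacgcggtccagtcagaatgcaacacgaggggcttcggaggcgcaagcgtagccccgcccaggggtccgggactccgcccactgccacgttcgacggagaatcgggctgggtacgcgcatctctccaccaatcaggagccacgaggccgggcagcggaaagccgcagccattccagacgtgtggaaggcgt

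The transcripts of this machinery gave bright signals in PCs of both states. Their log2 intensities ran from 7.76 to 13.78, and the median member lay between 12.22 and 12.39 in the cultured arrays and at 12.55 and 12.46 in the ex vivo arrays of experiments 1 and 2, where the median of all genes tested lay between 8.07 and 8.19. Brightness on an array depends on the probe as well as on the transcript, so genes are not ranked by it. Edem1, a mannosidase-like protein that marks glycoproteins for degradation, had the smallest range over the 5 arrays among the brightest probe sets, 0.08, and Syvn1 the largest, 1.87.

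**Figure D2:**
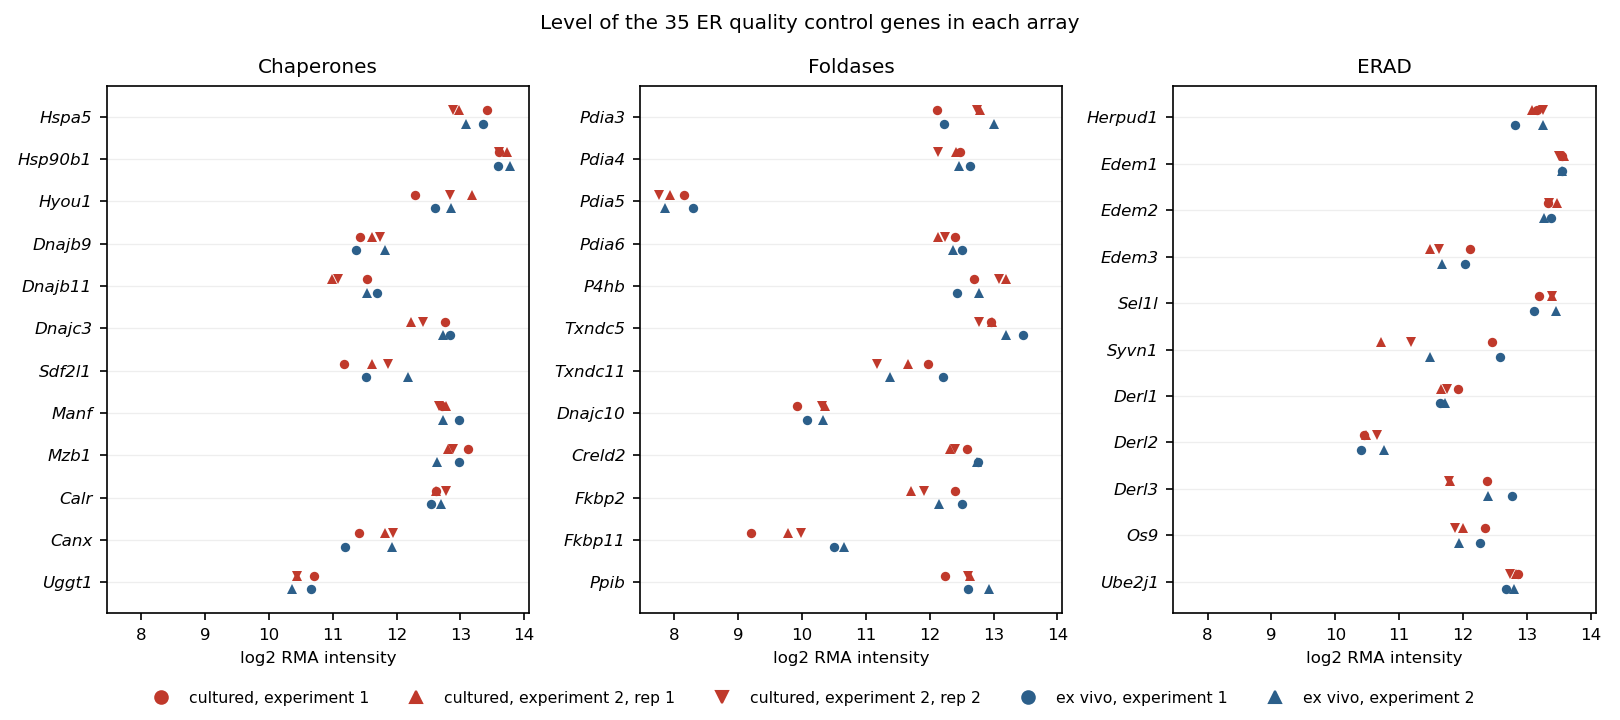
Level of each of the 35 genes (log2 RMA intensity) in the 3 cultured arrays (red, upper row of each gene) and the 2 ex vivo arrays (blue, lower row), with circles for experiment 1 and triangles for experiment 2. Red and blue points overlap for 30 genes, and for Dnajb11, Txndc5, Creld2, Fkbp11 and Derl3 all red points lie below all blue ones.

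Levels of these genes in cultured PCs lay close to those in ex vivo PCs. With no term for the experiment in the limma model, 0 of the 35 members passed the threshold (adjusted p under 0.05), against 8 of 13578 genes tested (0.0589%), and 2 members had an unadjusted p under 0.05 (5.71%, beside 6.69% of all genes). With the experiment as a replicate block, which compares samples within an experiment, 0 of the 35 passed, against 236 genes (1.74%), and 8 members had an unadjusted p under 0.05, of which 7 were lower and 1 higher in culture (22.9%, beside 17.3% of all genes). Beyond the missed threshold, the intervals show how large a change these arrays leave possible. The 95% confidence interval of the fitted change with the block lay within 1 log2 unit of zero for 34 of the 35 members, the exception being Fkbp11, and within 0.5 for 23. The shares, 97.1% and 65.7%, were near those of all genes tested, 94.4% and 56.9%. The median change over the members was -0.07 on the log2 scale, beside -0.06 over all genes tested, and with the block it was -0.07 beside -0.05. As RNA of whole samples was measured, fewer cells of a type and less RNA per cell cannot be told apart.

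The median change was at or below zero in all 3 classes, apart from 0.004 for the ERAD genes with the block, and no test compared the classes. Each cultured sample was set against the ex vivo sample of its own experiment, which gives 3 pairs, of which the 2 in experiment 2 share an ex vivo array. In all 3 pairs, 13 of the 35 members were lower in culture (29.7% of all genes tested were) and 3 were higher (18.9% of all genes). Of the 13, 8 were foldases, 3 chaperones and 2 ERAD genes, out of 12, 12 and 11. The median change was -0.19 for the foldases, -0.02 for the chaperones and -0.01 for the ERAD genes, and with the block -0.18, -0.06 and 0.004. All cultured arrays lay below both ex vivo arrays in 5 members (13.0% of all genes) and above them in 0 (7.79% of all genes). The members were chosen with results of these data known, and these shares are descriptions that carry no test.

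**Figure D3:**
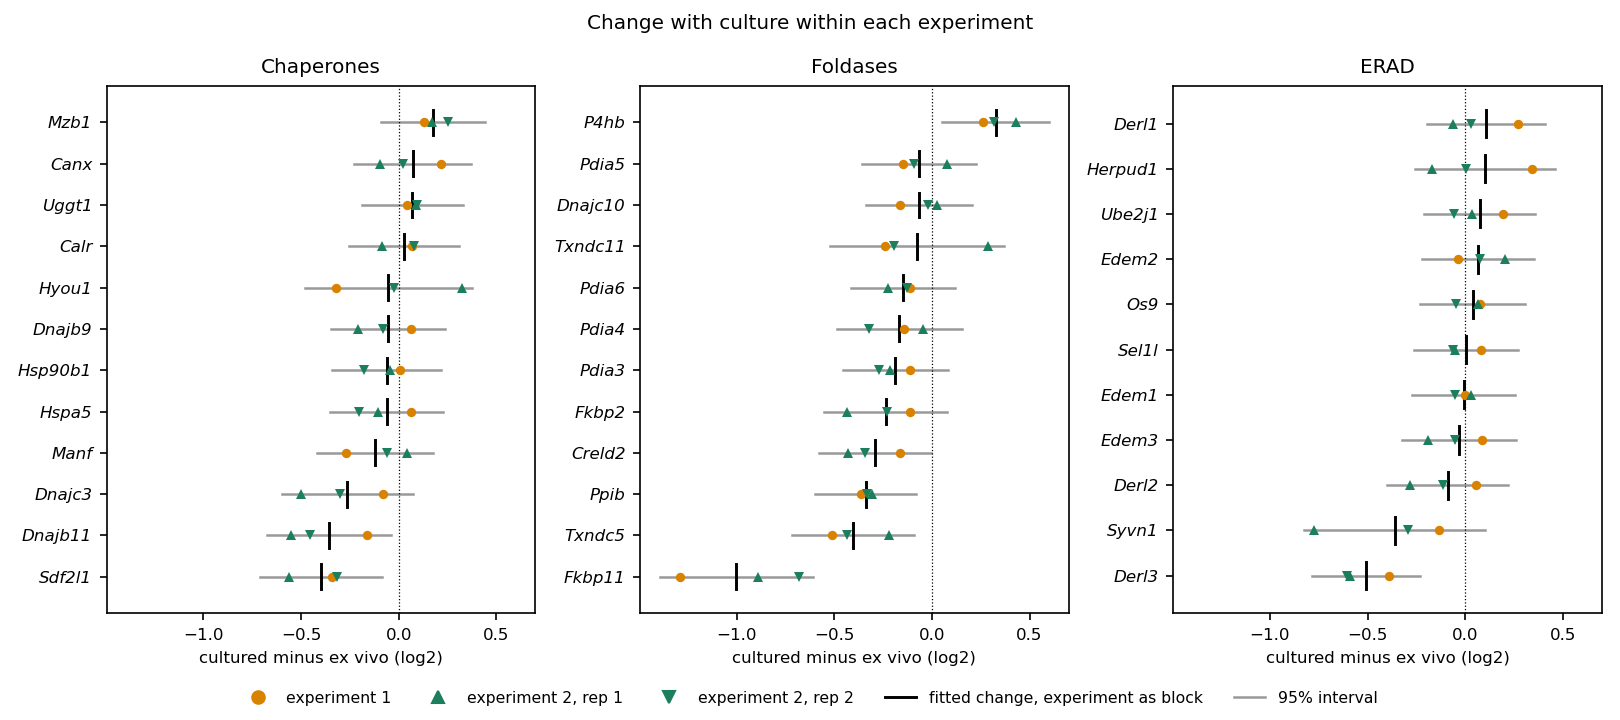
Cultured minus ex vivo level (log2) of each gene within experiment 1 (orange circles) and for each cultured sample of experiment 2 (green triangles), ordered by the fitted change. The black bar is the change fitted with the experiment as a block and the grey line its 95% interval. Fkbp11 lies furthest from zero at -1.002, and P4hb is the only foldase with all 3 points above zero.

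Among the chaperones, the brightest probe sets of BiP and GRP94 each had a fitted change of -0.06 with the block. The weakest probe set of BiP lay lower in culture in all 3 pairs. Hspa5, which encodes BiP, measured 13.42 in cultured PCs of experiment 1 and 12.98 and 12.88 in the cultured samples of experiment 2, against 13.35 and 13.09 in ex vivo PCs of experiments 1 and 2. The cultured sample was higher in experiment 1 and both were lower in experiment 2, and the fitted change with the block was -0.06 ± 0.12 (SE, adjusted p = 0.82). Its weakest probe set gave 7.15, 6.64 and 6.67 in culture against 7.41 and 7.19 ex vivo, without overlap (change -0.42 ± 0.12, unadjusted p = 0.013, adjusted p = 0.15). The third gave -0.28 ± 0.19 with overlap, higher in culture by 0.03 in experiment 1 and lower in experiment 2. Hsp90b1, the ER member of the HSP90 family, stood at 13.60, 13.73 and 13.60 in the cultured arrays and at 13.59 and 13.78 ex vivo. The groups overlapped, with a change of -0.06 ± 0.11. Its second probe set was lower in culture in all 3 pairs, also with overlap (change -0.12 ± 0.11, adjusted p = 0.62). Dnajb9 (ERdj4), a co-chaperone that restrains the stress sensor IRE1, gave 11.43, 11.61 and 11.74 in culture and 11.36 and 11.82 ex vivo. Here too the sign differed between experiments, and the change was -0.06 ± 0.12. Uggt1, the sensor that returns unfolded glycoproteins to calnexin, gave 10.71, 10.44 and 10.45 in culture and 10.67 and 10.36 ex vivo, which put the cultured sample above its ex vivo partner in all 3 pairs by at most 0.09. Its second probe set differed more, with 9.53, 9.54 and 9.56 in culture against 9.12 and 9.02 ex vivo and no overlap (change 0.48 ± 0.11, unadjusted p = 0.0049, adjusted p = 0.10).

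Among the brightest probe sets, the largest differences in this class were in a pair of genes whose proteins work as a complex with BiP. Dnajb11 (ERdj3), a co-chaperone that binds unfolded chains, measured 11.53, 10.99 and 11.08 in the cultured arrays and 11.69 and 11.54 ex vivo. Every cultured array lay below both ex vivo arrays, the nearest by less than 0.01. Its change with the block was -0.36 ± 0.13 (SE, unadjusted p = 0.034, adjusted p = 0.23). Sdf2l1, a partner of ERdj3, measured 11.18, 11.61 and 11.86 in the cultured arrays and 11.53 and 12.18 ex vivo. The groups overlapped, with experiment 2 higher in both states, but within each experiment the cultured samples were lower, and the change with the block was -0.40 ± 0.13 (adjusted p = 0.19). Neither gene passed the threshold. Weaker probe sets of Hspa5, Uggt1 and Dnajc3 gave larger changes with the block, -0.42, 0.48 and -0.53, and did not pass either.

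The brightest probe sets of the other chaperones showed changes with the block between -0.26 and 0.18. Dnajc3 (P58IPK), another co-chaperone of BiP, had the lowest of these values and was below its ex vivo partner in all 3 pairs. Mzb1, an ER protein of B cells and PCs that aids IgM assembly, had the highest, 0.18 ± 0.11, and was above its partner in all 3 pairs (adjusted p = 0.44). For Hyou1, a nucleotide exchange factor of BiP, the within-experiment differences were -0.32 in experiment 1 and 0.32 and -0.02 in experiment 2. Manf, a small BiP-binding protein, and the lectins Calr and Canx gave -0.12, 0.03 and 0.07. The 4 further Dnajc3 probe sets gave changes with the block from -0.53 ± 0.26 (adjusted p = 0.34) to 0.003 ± 0.11.

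Of the 12 foldases, 11 had a fitted change below zero with the block, as did 8 of 12 chaperones, 5 of 11 ERAD genes and 60.1% of all genes. Fkbp11, an FK506-binding prolyl isomerase of the ER found in secretory tissues, measured 9.21 in cultured PCs of experiment 1 and 9.77 and 9.98 in those of experiment 2, against 10.50 and 10.66 in ex vivo PCs of experiments 1 and 2. The cultured arrays averaged 9.65 ± 0.40 (SD, n = 3) and the ex vivo arrays 10.58 ± 0.12 (SD, n = 2), without overlap. The difference was -0.93 ± 0.26 (SE, adjusted p = 0.56) without the block. With the block it was -1.002 ± 0.16 (95% interval -1.40 to -0.61, unadjusted p = 0.00092, adjusted p = 0.0503), just short of the threshold. Under the block, a stricter intensity filter gave an adjusted p of 0.031, quantile normalization 0.049, centring on the median 0.042 and a trended robust fit 0.042, whereas testing all probe sets gave 0.090. These 5 combinations were added after the data had been seen, so the call for Fkbp11 depends on the setting.

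Txndc5, a thioredoxin-domain disulfide isomerase, measured 12.96, 12.98 and 12.76 in the cultured arrays and 13.47 and 13.20 ex vivo. The groups did not overlap, the change with the block was -0.41 ± 0.13 (adjusted p = 0.18), and its second probe set gave 12.60, 12.94 and 12.72 in culture against 13.05 and 13.10 ex vivo, also without overlap. Ppib (cyclophilin B), a prolyl isomerase of another family, measured 12.24, 12.63 and 12.60 in culture and 12.60 and 12.94 ex vivo. Its within-experiment differences were among the most even of the class, -0.36 in experiment 1 and -0.31 and -0.33 in experiment 2, with a fitted change of -0.34 ± 0.10 (adjusted p = 0.18). Creld2, an ER stress-inducible protein with disulfide isomerase activity, measured 12.59, 12.31 and 12.40 in culture and 12.75 and 12.74 ex vivo, without overlap, and its change was -0.29 ± 0.12 (adjusted p = 0.27). Ppib, Creld2 and P4hb were singled out after their values had been seen.

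P4hb ran the other way. It measured 12.69, 13.20 and 13.09 in the cultured arrays and 12.43 and 12.77 ex vivo. Cultured samples were higher than their ex vivo partner in 3 of 3 pairs, by 0.26 to 0.43, and the change with the block was 0.33 ± 0.11 (unadjusted p = 0.027, adjusted p = 0.21), so this difference missed the threshold too. The P4hb protein is also a subunit of the collagen prolyl hydroxylase of matrix-forming cells. Markers of such cells moved with culture. Of the 15 stromal genes tested, 13 were higher in every cultured array than in either ex vivo array, Col1a1, Col1a2 and Cxcl12 among them. The share over all genes was 7.79%. Of the 16 measured, 6 reached an intensity of 50 in all arrays. Others could enter the test through the cultured arrays alone, which favours such a gap. The summed stromal intensity was 5625 in the cultured PCs of experiment 1 and 16248 and 16572 in those of experiment 2, against 1096 and 938 ex vivo. Thy1 and Vcam1 were lower in culture and Postn was near background throughout. The part of stromal RNA in the P4hb values was not tested.

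By their brightest probe sets, the remaining foldases had smaller differences. Pdia5, a less studied disulfide isomerase, measured 8.15, 7.93 and 7.76 in culture and 8.29 and 7.85 ex vivo, and the groups overlapped. Pdia3 (ERp57), the partner of calnexin and calreticulin, Pdia4, Pdia6 and Fkbp2 were lower than their ex vivo partner in all 3 pairs, with changes between -0.24 and -0.15 with the block. Dnajc10 (ERdj5), a disulfide reductase that serves ERAD, and Txndc11 gave -0.07 and -0.08, with signs that varied among the pairs. The second probe sets of Pdia4 and Pdia6 gave larger changes with the block, -0.82 ± 0.16 (adjusted p = 0.077) and -0.50 ± 0.12 (adjusted p = 0.11). That of Pdia3 went the other way, 0.05 ± 0.14. None of these passed the threshold.

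Among the ERAD genes, Derl3 had the lowest change. The gene, which encodes a derlin, measured 12.37 in cultured PCs of experiment 1 and 11.80 and 11.78 in those of experiment 2, against 12.76 and 12.39 in ex vivo PCs of experiments 1 and 2. All cultured arrays lay below both ex vivo arrays, though the cultured sample of experiment 1 did so by 0.02 only against the ex vivo sample of experiment 2. The change was -0.59 ± 0.25 (SE, adjusted p = 0.79) without the block and -0.51 ± 0.11 (unadjusted p = 0.0046, adjusted p = 0.099) with it. Derl2 measured 10.45, 10.48 and 10.65 in culture and 10.40 and 10.76 ex vivo, with a change of -0.09 ± 0.12 and an opposite sign in the experiments. Derl1 gave a change of 0.11 ± 0.12.

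Syvn1, the ubiquitin ligase HRD1 at the centre of the complex, measured 12.45 in cultured PCs of experiment 1 and 10.71 and 11.19 in those of experiment 2, against 12.58 and 11.49 ex vivo. The samples fell by experiment more than by culture, and the change with the block was -0.36 ± 0.19 (adjusted p = 0.38), lower in 3 of 3 pairs. Its scaffold Sel1l gave 0.004 ± 0.11, while the 4 other Sel1l probe sets gave mean within-experiment changes between -0.18 and -0.05. Edem1 measured 13.55, 13.58 and 13.50 in culture and 13.56 and 13.55 ex vivo. Its second probe set gave 11.16, 11.09 and 11.20 in culture against 11.35 and 11.47 ex vivo, lower in all 3 pairs without overlap (change -0.26 ± 0.11, adjusted p = 0.29). Edem3 measured 12.11, 11.48 and 11.62 in culture and 12.02 and 11.67 ex vivo, with overlap and a change of -0.03 ± 0.12. The brightest probe sets of Edem2, the lectin Os9, the ubiquitin-conjugating enzyme Ube2j1 and Herpud1, which recruits components to HRD1, gave changes between 0.04 and 0.10. None of these passed, and a second Edem2 probe set with a larger change is described below.

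Most members are covered by more than 1 probe set, and the weaker probe sets allow a second look. For 25 members there were 40 further probe sets, 38 of them bright enough to test. Of the 40, 27 had the sign of the brightest one. Of the 38 tested, 0 passed the threshold without or with the block, where 14 and 550 of all 30477 probe sets tested did. With the block, 6 of the 38 had an unadjusted p under 0.05, beside 17.3% of all genes by their brightest tested probe set. For 15 of the 25 members all further probe sets had the sign of the brightest. The 2 further Fkbp11 probe sets, with levels between 5.30 and 5.95, gave mean within-experiment changes of -0.24 and -0.31. The second Pdia4 probe set gave 6.88, 8.03 and 7.69 in culture against 7.48 and 8.84 ex vivo, a larger gap within each experiment than the brightest showed. The second Edem2 probe set gave 7.70, 9.18 and 8.98 in culture against 7.11 and 8.06 ex vivo (change with the block 0.84 ± 0.15, unadjusted p = 0.0016, adjusted p = 0.064). The brightest Edem2 probe set differed by at most 0.20 in any pair. Probe sets of a gene can read different transcript ends, and what these 2 read was not examined.

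**Figure D4:**
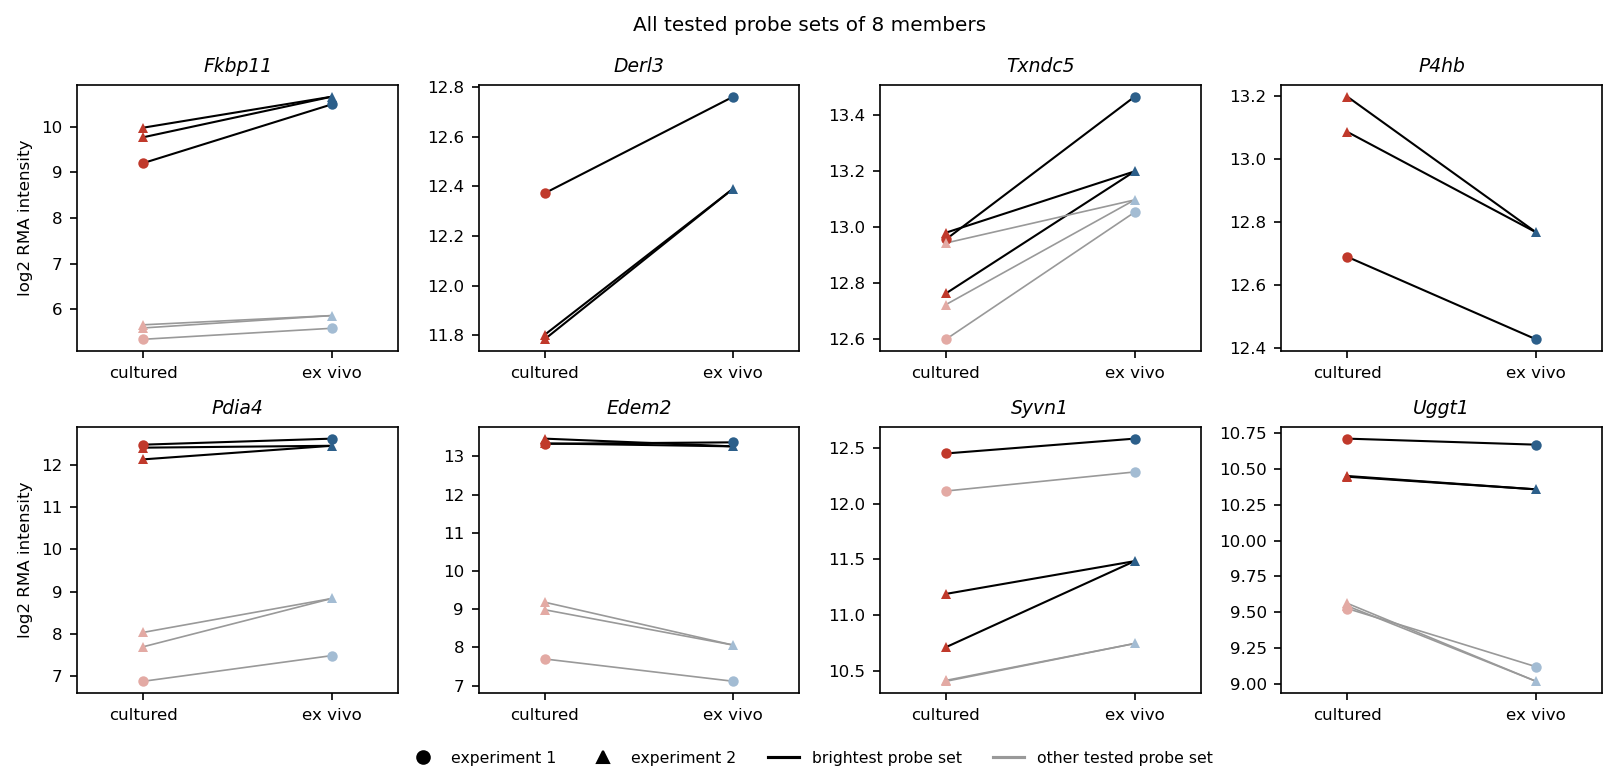
Level (log2 RMA intensity, a separate scale in each panel) of all tested probe sets of 8 members in cultured and ex vivo arrays, each cultured array joined to the ex vivo array of its experiment. Black lines are the brightest probe set and grey lines the others, circles are experiment 1 and triangles experiment 2. Lines of Fkbp11, Derl3 and Txndc5 rise to the right in every pair (lower in culture), those of P4hb fall, and the 2 Syvn1 probe sets separate by experiment.

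Between the experiments, members passed the test in shares near those of all genes. With culture in the model, 4 members (11.4%) were higher in experiment 2 than in experiment 1, as were 11.0% of all genes, and 5 (14.3%) were lower, as were 14.1% of all genes. Syvn1 had the largest difference, -1.33 ± 0.19 (SE, adjusted p = 0.0079), and its second probe set measured 10.42 and 10.41 in cultured and 10.75 in ex vivo PCs of experiment 2, against 12.11 and 12.29 in experiment 1. Txndc11 (-0.68), Fkbp2 (-0.49), Derl3 (-0.49) and Edem3 (-0.47) were the other lower ones. Pdia3 (0.71, adjusted p = 0.0095), Sdf2l1 (0.60), Canx (0.58) and P4hb (0.40) were higher in experiment 2. Pdia3 measured 12.79, 12.74 and 13.01 in the cultured and ex vivo arrays of experiment 2, against 12.11 and 12.22 in experiment 1, with no overlap. Canx, the membrane lectin calnexin, measured 11.83, 11.94 and 11.92 in experiment 2 and 11.42 and 11.20 in experiment 1. With quantile normalization the count was 7 higher and 2 lower, and with arrays centred on their medians 3 higher and 8 lower, so the split between directions rests on the scaling. The share of all genes was not counted in these settings or the following ones, so a shift common to all genes cannot be told apart. Without the cultured array of experiment 1, or without either ex vivo array, 0 members passed, and without the first or the second cultured array of experiment 2, 5 and 2 did.

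**Figure D5:**
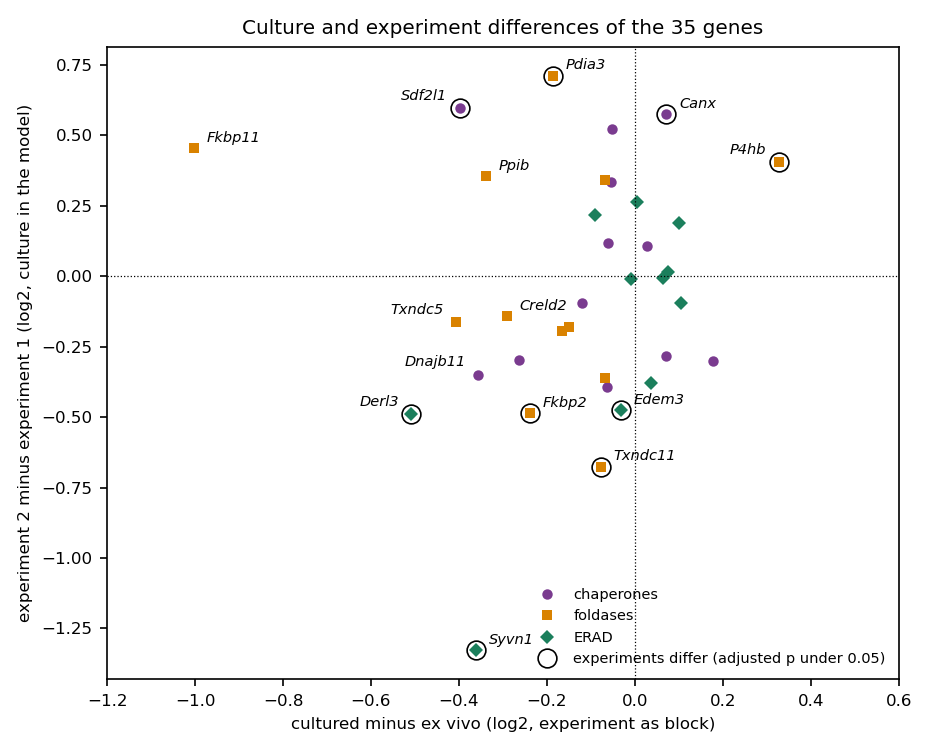
Difference between experiments (vertical, experiment 2 minus experiment 1, log2) against the change with culture (horizontal, cultured minus ex vivo with the experiment as block, log2) for the 35 genes, coloured by class. Open circles mark the 9 genes whose experiments differed at an adjusted p under 0.05. The vertical spread, from -1.33 to 0.71, exceeds the horizontal one, from -1.002 to 0.33.

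The response to culture itself was not shown to differ between the experiments. The interaction of culture and experiment passed for 0 of the 35 members and for 0.0% of the 13578 genes (limma, 1 residual degree of freedom). At an unadjusted p under 0.05 it held for 0 of the 35 members and 784 of the 13578 genes, a share so low that 0 of 35 does not set the members apart. For 7 of the 35 members, 3 chaperones and 4 ERAD genes, the sign differed between the experiments in every pair, as it did for 24.2% of all genes.

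Genes with and without the promoter elements were set side by side as a description. The 11 members with an ERSE or ERSE-II had a median change of -0.15 with the block, from -0.51 (Derl3) to 0.10 (Herpud1), and 6 of the 11 were lower in culture in all 3 pairs. The 17 matched members with none of the 3 motifs had a median of -0.07, from -1.002 (Fkbp11) to 0.33 (P4hb), and 6 of the 17 were lower in all 3 pairs. The ranges overlapped widely, and no test compared these sets. Over all genes tested the median change with the block was -0.05, and 29.7% were lower in all 3 pairs.

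A wider set of 51 other ER quality control genes, such as further thioredoxins, ubiquitin ligases and the VCP complex, was examined as well. Of the 48 tested, 0 passed without the block, where 0.0589% of all genes did. With the block 1 rose and 0 fell, where 1.74% of all genes were called in either direction. The one that rose was Fkbp9, a prolyl isomerase, at 6.29, 8.15 and 8.14 in culture against 4.37 and 5.31 ex vivo (change 2.45 ± 0.22, adjusted p = 0.012). Its ex vivo values were below an intensity of 50, which the filter asks of 2 arrays. Fkbp9 was therefore tested through its cultured arrays only, which favours a gap in this direction. All of its cultured values lay above its ex vivo values. It was brightest in the 2 cultured arrays with the highest stromal sum, whose part in it was not tested. The median change of the 48 genes was -0.05 with the block.

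For the regulators of the unfolded protein response, 0 of 9 passed with or without the block, beside 1.74% and 0.0589% of all genes. Xbp1, the transcription factor that drives the secretory programme, measured 13.39, 13.96 and 13.97 in culture and 13.60 and 13.96 ex vivo. Ddit3 (CHOP), a factor induced by severe ER stress, measured 10.56, 9.83 and 9.73 in culture and 10.28 and 10.15 ex vivo, with overlap. Ppp1r15a (GADD34), which reverses the translational block, measured 10.28, 10.05 and 9.44 in culture and 11.25 and 10.70 ex vivo, all cultured arrays below both ex vivo arrays, and its change with the block was -0.96 ± 0.20 (adjusted p = 0.085). Trib3, a pseudokinase downstream of ATF4, measured 9.83, 8.10 and 8.10 in culture against 8.08 and 7.81 ex vivo, all cultured arrays above both ex vivo arrays, with most of its gap in experiment 1 (change 0.91 ± 0.32, adjusted p = 0.22). The splicing of Xbp1 is not measured by the array.

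Other transcripts did move with culture in the same arrays. Of 8 immediate-early and isolation stress genes tested, 5 fell in culture without the block and 8 with it. Of all genes tested, 0.0589% and 1.74% were called in either direction. Fos measured 4.59, 4.87 and 5.07 in culture against 13.04 and 13.16 ex vivo. Of 8 macrophage markers tested, 5 fell and 1 rose with the block, with C1qa at 5.27, 5.15 and 5.24 in culture against 7.49 and 7.31 ex vivo. Fos and C1qa were below an intensity of 50 in every cultured array and were tested through the ex vivo arrays only, which favours a fall. Of the genes measured, 6 of 10 stress genes and 4 of 9 macrophage markers reached 50 in all arrays. The summed stress gene intensity was 902 to 1288 in culture against 22529 and 26474 ex vivo. The part of either in the lower foldase values was not tested.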

How the data were processed

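Affymetrix arrays were hybridised with RNA of 3 cultured and 2 ex vivo PC samples, which were grouped by the labels. The authors ran RMA in the affy package, and GCOS is named in the submitters' notes too. The version of each is not given in the sources used. Deposited values are linear-scale intensities between 4.94 and 26947.18 (array medians 87.05 to 94.19), and log2 was taken of them. Detection calls were not used, and the small number of arrays limits the precision.

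Of the 45101 probe sets, 64 are controls. Excluding these, 34945 carry 1 gene symbol in the platform annotation, 932 several and 9160 none listed here. Coordinates refer to RefSeq windows (GRCm38.p6) and not to the array, whose build is not given. A probe set entered the test if 2 or more arrays reached an intensity of 50, which held for 30477. They were fitted in limma 3.58.1 (R 4.3.3, lmFit and eBayes), and p-values were adjusted by Benjamini-Hochberg over all of them, with a threshold of 0.05. The model was fitted for culture alone, since the study's methods name limma with no covariate, for culture with the experiment as block, for the experiment with culture as covariate, and for their interaction. The fits were tested on simulated data. Each gene is represented by its brightest probe set with 1 symbol. Experiment numbers pair the samples by the labels, and in the 3 pairs the residuals around the group means had correlations of 0.75, 0.56 and 0.72. With 2 ex vivo arrays, whose residuals mirror each other, these are not independent.

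Values per array are given for members with the largest mean within-experiment change, the highest and lowest level, or opposite signs between experiments in each class, and for called genes. Others were chosen after their values were seen. Members and lists were chosen with earlier results of these data known. Alternatives were the block, averaging of repeat arrays, filter, normalization, moderation, threshold, choice of probe set and leaving out each array. Figures were drawn with matplotlib 3.10.9.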

Additional observations from a re-analysis of the deposited data

Results flagged for a closer look

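For 7 members every cultured sample differed from its ex vivo partner with one sign in experiment 1 and with the opposite sign in experiment 2. The change in experiment 1 minus the mean change in experiment 2 was 0.251 for Derl2, 0.218 for Hspa5, 0.211 for Dnajb9, 0.209 for Edem3, 0.139 for Sel1l and 0.117 for Hsp90b1 on the log2 scale, and -0.178 for Edem2. The interaction did not pass for any of them (limma, adjusted p from 0.70 to 0.83). Its 1 residual degree of freedom comes from the 2 cultured samples of experiment 2, which may be technical repeats. The test holds no spread among ex vivo samples or samples of experiment 1, so it cannot say whether these differences exceed that spread. Across all genes tested, 3291 of 13578 showed such a change of sign.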

How the results depend on the processing

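No member passed for culture in any planned setting, with or without the replicate block. The count of members was 1 (Fkbp11) when the replicate block was combined with a filter at an intensity of 100, quantile normalization, median centring or a trended robust fit, chosen after seeing the data, and 0 when it was combined with no filter. The change of Fkbp11 lay between -1.29 and -0.70 in the planned settings run on its brightest probe set, while its other probe sets gave -0.24 and -0.31. Among all probe sets, 14 passed in the fit without the block. The count was 550 with the replicate block, 187 with the replicate block and repeat arrays averaged, 0 with repeat arrays averaged alone, 5 without the filter, 31 with a filter at 100, 68 at an adjusted p under 0.1, and from 0 to 257 with an array left out. With the replicate block and an array left out the count was 271 or 153 when a cultured array of experiment 2 (the first or the second) was dropped, and 0 without the cultured array of experiment 1 or either ex vivo array. Where a group keeps 1 array, that array is assumed to vary like the others.

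The median change of the members was -0.056 with quantile normalization, -0.12 with median centring, -0.092 over all probe sets of a member, -0.14 with the most variable probe set, -0.077 with repeat arrays averaged, and -0.115 to -0.051 with an array left out. The foldase median was -0.25 with median centring, -0.29 over all probe sets, -0.30 with the most variable one and -0.302 to -0.136 with an array left out. The chaperone median was -0.114 to -0.0096 with an array left out. The ERAD median was -0.11 with the most variable probe set, and -0.014 to 0.017 with an array left out, which spans zero. Members that differed between experiments numbered 5 with repeat arrays averaged and 0 to 5 with an array left out. The few arrays, and signals close to the background for the further Fkbp11 probe sets, limit what can be seen.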

Other observations

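Among the other ER quality control genes, 5 of 48 (10.4%) had higher and 9 (18.8%) had lower levels in experiment 2 when set against experiment 1, near the 11.0% and 14.1% of all genes (limma with culture in the model, the same threshold). The examples here were chosen after their values were seen. Man1b1, the mannosidase that trims glycoproteins bound for ERAD, measured 10.37 and 10.28 in cultured and 10.74 in ex vivo PCs of experiment 2, against 11.41 in cultured and 11.83 in ex vivo PCs of experiment 1 (difference -1.09, adjusted p = 0.0039). Erp29, a chaperone of the disulfide isomerase fold, and Sil1, a nucleotide exchange factor of BiP, were lower by -0.95 and -0.79, and Kdelr3, a receptor that returns escaped ER proteins, was higher by 0.89. Of the regulators, Atf6 was higher (0.91) and Atf6b, its close relative, lower (-0.97) in experiment 2.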
